A study of Homo sapiens with 12 samples.

Results

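The comparison described here sets A498 cells that received siRNA against ELOVL2 beside A498 cells that received a control siRNA. A498 is an established human kidney carcinoma line. The libraries were chosen by their labels alone, siELOVL2 replicates 1 to 3 and control replicates 1 to 3, which makes 6 of the 12 RNA-seq libraries of the series. The other 6 came from cells given siRNA against both elongase genes (labelled siELOVL2_5 here) and from cells given siRNA against ELOVL5 alone (siELOVL5), again 3 each, and they share no library with the first 6. Each group is 3 biological replicates of 1 cell line, all with the same batch label. The labels give no siRNA sequence, number of siRNAs, dose or time after transfection, and no group without transfection.

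ELOVL2 is an elongase of the endoplasmic reticulum that adds carbons to long polyunsaturated fatty acids, a step on the way to docosahexaenoic acid, and ELOVL5 acts on shorter polyunsaturated chains. Polyunsaturated acyl chains in membrane lipids are the main substrates of lipid peroxidation, which cells counter with glutathione, GPX4 and the genes of the antioxidant factor NRF2. HMOX1 encodes heme oxygenase, which opens the heme ring and releases iron, and it is a known target of NRF2 that the repressor BACH1 holds down. An siRNA cuts the transcript it matches along its length, and in general can also lower transcripts whose 3′ untranslated region (UTR) pairs with only its first bases.

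The deposited values are read counts per gene after the authors' normalization, called normalized counts below, and their set is identical in every library, with a total of 8.525 M. Estimated depth before that step was 9.05 to 9.47 M reads in siELOVL2 libraries and 6.72 to 8.87 M in control libraries, so the 2 ranges did not overlap, and the part of depth in the calls was not tested. A gene without a read could hold a normalized count of up to 0.917, and no difference smaller than this could be detected. Fold changes are differences of mean log2(normalized count + 1), siELOVL2 minus control, fitted with limma on these 6 libraries for 18648 genes. A gene is called when its Benjamini-Hochberg adjusted p over all genes tested is under 0.05, and "rose" and "fell" are used for called genes only. An equal set of values in every library hides any change of the whole transcriptome, and in cultures fewer cells of a kind cannot be told apart from less RNA per cell.

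The libraries expressed kidney and epithelial identity genes under both siRNAs, while the proximal tubule genes SLC22A6, LRP2, UMOD and PCK1 were under 1 in all 6. PAX8, a transcription factor of the renal lineage, stood at 548, 511 and 586 in siELOVL2 replicates 1, 2 and 3, against 676, 575 and 557 in control replicates 1, 2 and 3. KRT8, an epithelial keratin, stood at 6587, 7432 and 8547 in siELOVL2 libraries and 5179, 5642 and 7685 in control libraries. CA9, a hypoxia-inducible marker of clear cell tumours, was low in all 6, at 5.42, 12.2 and 21.2 in siELOVL2 libraries and 8.67, 10.8 and 26.5 in control libraries. Of the 17 kidney and epithelial identity genes tested, limma called 0 and 3 had an unadjusted p under 0.05. Their summed levels did not overlap, at 44125 to 46129 in siELOVL2 libraries and 51068 to 54221 in control libraries. VIM, a member of this list, stood at 17039, 15154 and 13122 in siELOVL2 libraries and 24170, 21782.5 and 17859 in control libraries (limma adjusted p = 0.128). VIM thus made up a large part of these sums, and whether they separate without it was not tested. CDH6, a kidney cadherin, varied more between replicates than between groups, at 299, 1148 and 1996 in siELOVL2 libraries and 1105, 2621 and 3863 in control libraries. Replicate 1 was lowest and replicate 3 highest in both groups, and each siELOVL2 library lay below the control library of its number. With the replicate number as a block in the limma fit, adjusted p was 0.0435 for CDH6 and 0.0186 for VIM. That fit called 2 of the 17 genes lower and 0 higher. Summed levels of other cell types' markers were alike for leukocytes (386 to 421 in siELOVL2 libraries, 371 to 460 in control libraries), and CD3D, CD3E, CD2, CD8A and FCER1G were under 1 in all 6. Endothelial markers summed to 336 to 387 in siELOVL2 libraries and 338 to 347 in control libraries, with CDH5 and EMCN under 1. Fibroblast and pericyte markers summed to 583 to 685 in siELOVL2 libraries and 692 to 762 in control libraries, with COL1A2, COL3A1, DCN, LUM and THY1 under 1.

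ELOVL2 was lower in all 3 siELOVL2 libraries than in any control library. ELOVL2 stood at 27, 30.1 and 18.4 normalized counts in siELOVL2 replicates 1, 2 and 3, against 299, 299 and 211 in control replicates 1, 2 and 3. The groups lay far apart, and replicate 3 was the lowest within each. The mean was 25.2 ± 6.05 in siELOVL2 cells and 269.9 ± 50.7 in control cells (SD, n = 3 each), so that 9.32% was left. By the limma fit ELOVL2 fell by 3.38 log2 units (SE 0.23, adjusted p = 0.00392). The gene lies on the minus strand of chromosome 6, from 10980759 to 11044314 in GRCh38 (GENCODE 29). ELOVL5, its neighbour in the pathway, was not called, at 1791, 1994 and 2328 in siELOVL2 libraries and 1939, 1954 and 2038 in control libraries (log2 fold change 0.04, adjusted p = 0.89).

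Among the enzymes of fatty acid elongation and desaturation, 1 of 17 tested genes was called higher and 1, ELOVL2 itself, lower. FADS3, a desaturase-family gene that acts on sphingoid bases, stood at 685, 834 and 796 in siELOVL2 libraries and 476, 499.6 and 518 in control libraries. The groups did not overlap, and FADS3 rose by 0.63 (SE 0.08, limma adjusted p = 0.0262), a call that a fit of all 12 libraries did not make (adjusted p = 0.0941). FADS2, the desaturase that opens polyunsaturated synthesis, stood at 1214, 2023 and 2384 in siELOVL2 libraries and 1022, 1551 and 1962 in control libraries, with replicate 1 lowest and replicate 3 highest in both groups. FADS1, the desaturase further along the same route, had the same order of replicates, at 481, 717 and 914 in siELOVL2 libraries and 417, 513 and 608 in control libraries. Neither FADS2 (log2 fold change 0.30, limma adjusted p = 0.67) nor FADS1 (0.42, 0.413) was called. ELOVL4, the elongase of very long chains, was at 0 in all 6 libraries and was not tested.

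Across the transcriptome limma called 412 of 18648 genes (2.21%), of which 160 were higher (0.858%) and 252 lower (1.35%) in siELOVL2 cells. Changes were mostly modest: 14 rises and 34 falls were at least 2-fold, and the median log2 fold change was 0.44 among called rises and -0.55 among called falls, beside 0.017 over all genes tested. All 412 called genes had the 3 siELOVL2 libraries on 1 side of the 3 control libraries. Over all tested genes the same held for 12% higher and 10.4% lower, so separation alone is common. Of all genes tested 52.8% lay above control and 46.6% below, the shares beside which the counts of list members above or below control stand. Counts of called list members stand likewise beside 0.858% called higher and 1.35% called lower, and 1 call in a list is not read as a trait of the list. At an unadjusted p under 0.05 there were 3428 genes.

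**Figure D1:**
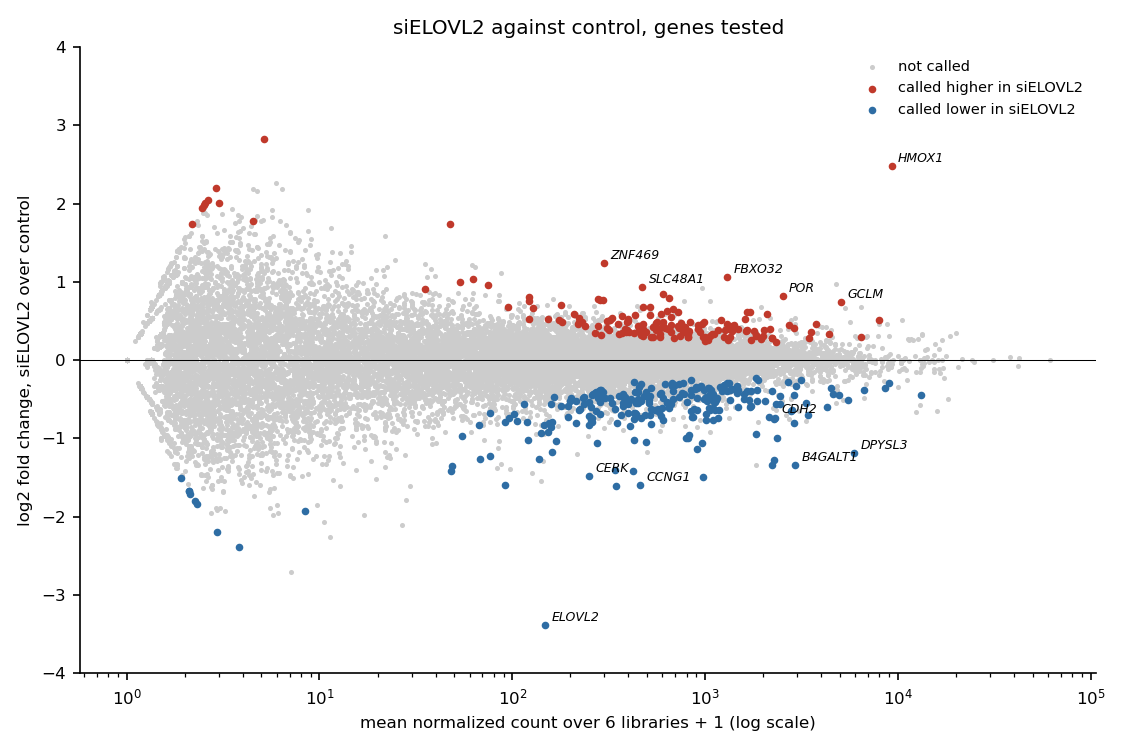
Log2 fold change of siELOVL2 over control (vertical axis) against mean normalized count over the 6 libraries plus 1 (horizontal log axis), 1 point per tested gene. The 160 genes called higher are red and the 252 called lower blue. HMOX1 stands highest among well-expressed genes at 2.48 and ELOVL2 lowest at -3.38.

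The calls needed all 6 libraries. Without control replicate 1, control replicate 2 or siELOVL2 replicate 2 the same test called 0 genes, and without control replicate 3, siELOVL2 replicate 1 or siELOVL2 replicate 3 it called 25, 43 and 11. For each of the 86 called genes that the naming rule chose, the highest adjusted p over these 6 fits lay between 0.0986 and 0.187, and no sign changed. ELOVL2 was called in 3 of the 6, and SLC48A1, POR and FDX1, among others, in 0. With the spread estimated from all 12 libraries, limma called 254 genes here, 203 of them among the 412. Of these 86 genes 58 were called in that fit, and 31 were still called in it without any 1 of the 12 libraries. Among rises these were HMOX1, SLC48A1, POR, GCLM, FDX1, ZNF469, ERMP1, NEU1 and SLC7A6. Among falls they were ELOVL2, HMGB3, CCNG1, DUSP3, CERK, VBP1, MOB1A, B4GALT1, PEG10, DPYSL3, PHF13, TMEM127, HIATL1, TAF10, FAM173A, SIPA1L2, ELAVL1, TENM3, NUP50, AFF4, EGLN1 and CDH2. Those of the 86 that the 12-library fit did not call were called in it without siELOVL5 replicate 3, GCH1 and ERRFI1 aside. That library, which stood apart from its group, is outside the comparison of siELOVL2 with control.

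Genes that handle heme and iron held the largest rise among called genes at or above the median level. Of 27 tested, 4 were called higher and 1 lower, 22 lay above control, and the list's median log2 fold change was 0.17, beside 0.017 over all genes tested. HMOX1 stood at 18624, 14723 and 13851 normalized counts in siELOVL2 replicates 1, 2 and 3, against 3298, 2655 and 2508 in control replicates 1, 2 and 3. The lowest siELOVL2 library was several times the highest control library. HMOX1 rose by 2.48 (SE 0.14, limma adjusted p = 0.00385). SLC48A1, which carries heme out of lysosomes and endosomes, stood at 546, 658 and 647 in siELOVL2 libraries and 285, 349 and 336 in control libraries, a rise of 0.93 (adjusted p = 0.0187). POR, the reductase that passes electrons to heme oxygenase and to cytochromes P450, stood at 2929, 3209.6 and 3518 in siELOVL2 libraries and 1712, 1759 and 1987 in control libraries, a rise of 0.82 (adjusted p = 0.015). In both genes the lowest siELOVL2 library was well above the highest control library.

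The iron transporter SLC11A2 rose less, by 0.36 (limma adjusted p = 0.0234), with 754, 729 and 744 in siELOVL2 libraries and 592, 580.2 and 568 in control libraries. BACH1, the heme-binding repressor of HMOX1, stood at 696, 768 and 853 in siELOVL2 libraries and 1132, 1298 and 1289 in control libraries. It fell by 0.68 log2 units (SE 0.09, adjusted p = 0.0262) in the 6-library fit, and the fit of 12 libraries did not call it (adjusted p = 0.178). Its groups did not overlap, and BACH1 was singled out after its values were seen. Genes of heme synthesis and iron storage were not called: ALAS1, the first enzyme of heme synthesis, was at 0.36 (adjusted p = 0.0865), and the ferritin light chain gene FTL at 0.34 (adjusted p = 0.134). HMOX2, the constitutive heme oxygenase, was at -0.09 (adjusted p = 0.75), and the bilirubin-forming reductase gene BLVRB at 0.13 (adjusted p = 0.68).

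**Figure D2:**
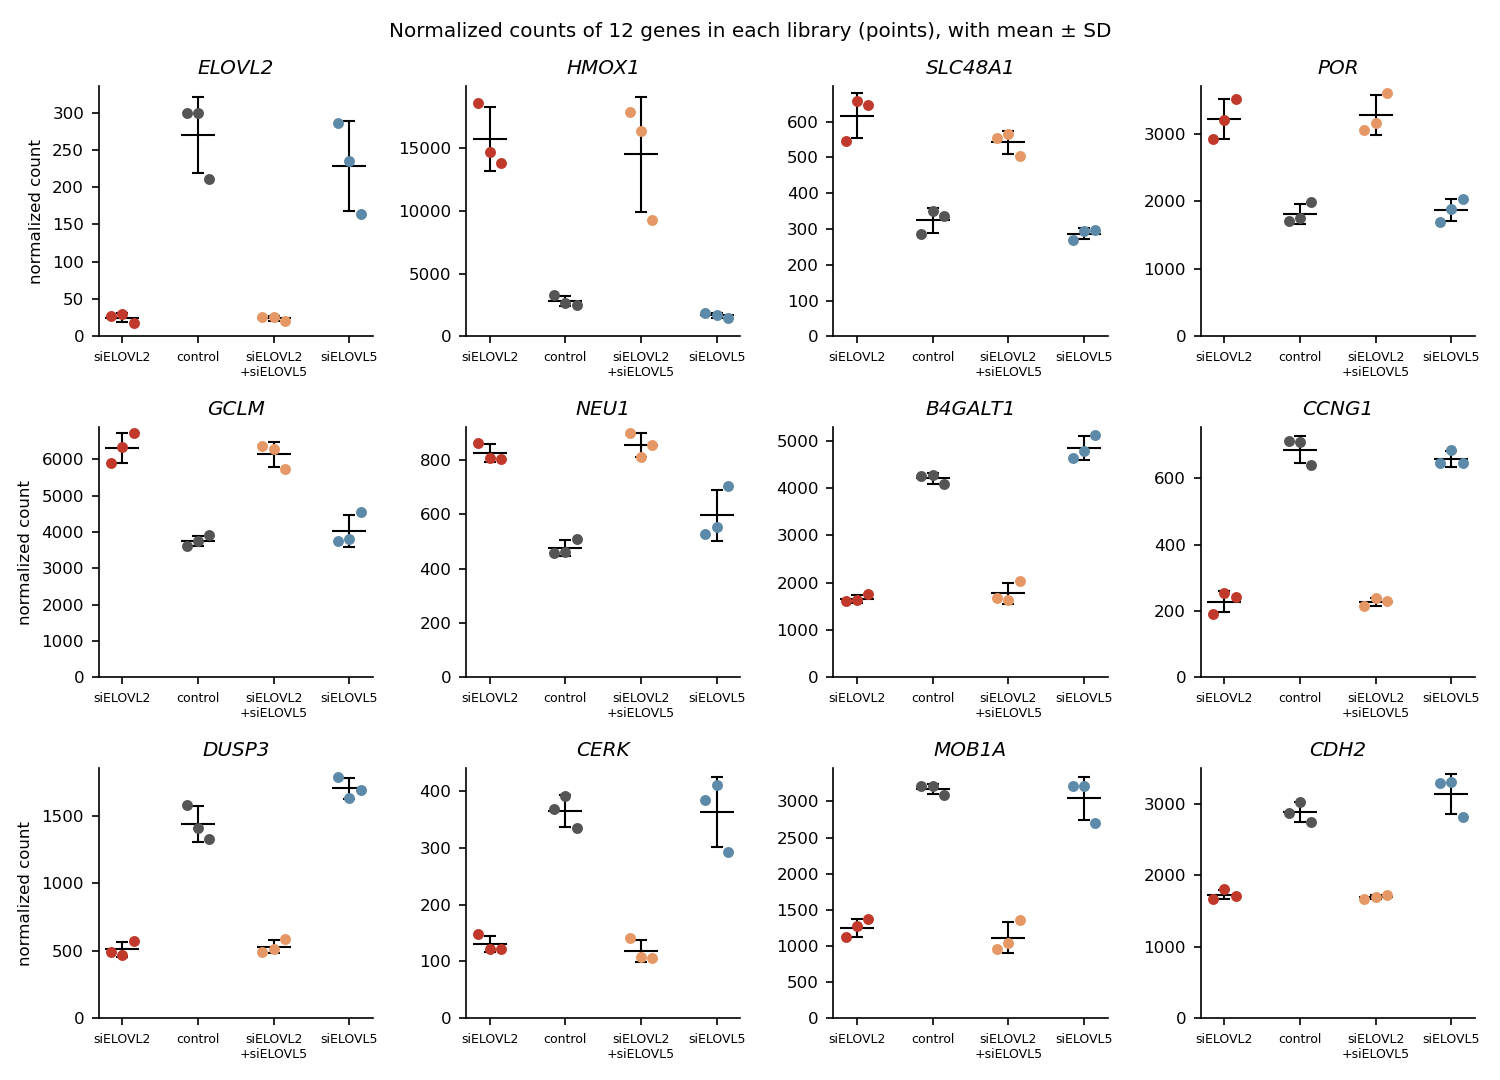
Normalized counts (vertical axes, each from 0) of 12 genes in the siELOVL2, control, siELOVL2+siELOVL5 and siELOVL5 libraries. Points are single libraries, and bars give mean ± SD of 3. In each panel the siELOVL2 libraries stand clear of the control libraries: HMOX1, SLC48A1, POR, GCLM and NEU1 are above them, and ELOVL2, B4GALT1, CCNG1, DUSP3, CERK, MOB1A and CDH2 below.

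Genes of the NRF2 and glutathione list lay mostly above control, and the main fit called a few of them. A fit with the replicate number as a block called more, 14 higher and 1 lower, as it did over all genes tested. Of 30 tested, 28 were above control, 3 were called higher and 0 lower, and the median was 0.26. GCLM, the modifier subunit of glutamate-cysteine ligase, the rate-limiting step toward glutathione, stood at 5897, 6334 and 6731 in siELOVL2 replicates 1, 2 and 3, against 3628, 3754 and 3911 in control replicates 1, 2 and 3. These values did not overlap, and GCLM rose by 0.75 (SE 0.06, limma adjusted p = 0.007). Its catalytic partner GCLC rose by 0.35 (adjusted p = 0.0499) and was not called by the fit of 12 libraries (adjusted p = 0.0551). SQSTM1, the autophagy receptor p62, stood at 10213, 8969 and 8929 in siELOVL2 libraries and 7084, 6094 and 6505 in control libraries, and rose by 0.51 (adjusted p = 0.0369). NQO1, a quinone reductase often used as the marker of this pathway, was at 0.47 and just missed the call (adjusted p = 0.0551), and the 12-library fit made it (adjusted p = 0.0183). The cystine carrier SLC7A11 (0.17, adjusted p = 0.427) and the sulfiredoxin SRXN1 (0.02, 0.97) stood near their control levels. The gene of NRF2 itself, NFE2L2, was at 0.05 (adjusted p = 0.675), with 2122, 1986 and 2248 in siELOVL2 libraries and 2034, 2032 and 2065 in control libraries.

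Ferroptosis genes, which govern death by lipid peroxidation, held 2 called rises and 0 called falls among 23 tested, with 14 above control and a median of 0.12. ACSL4, the ligase that activates long polyunsaturated acids for membrane lipids, stood at 2468, 2401 and 2450.4 in siELOVL2 libraries and 1983, 2034 and 2023 in control libraries, a rise of 0.28 (limma adjusted p = 0.03). GCH1, the first enzyme of tetrahydrobiopterin synthesis, stood at 44.8, 46.7 and 44 in siELOVL2 libraries and 21.6, 22.8 and 26.6 in control libraries, a rise of 0.91 (adjusted p = 0.0499). Neither overlapped its controls, yet the 12-library fit called neither (adjusted p = 0.195 for ACSL4 and 0.152 for GCH1). GPX4, the peroxidase that reduces lipid hydroperoxides, was at 0.39 without a call (adjusted p = 0.0726), with 1102, 989 and 949.8 in siELOVL2 libraries and 842, 757 and 726 in control libraries.

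Promoters of the called genes were read for 2 short motifs, TGACNNNGC (the core of the antioxidant response element bound by NRF2 and BACH1) and the E-box CACGTG, on both strands of the 300 bases around each gene's start in the RefSeq table (GRCh38.p14). A promoter was found for 125 of the 160 called rises, 204 of the 252 called falls and 12545 of the 18648 genes tested. HMOX1 has no promoter in that table and was not among those read. TGACNNNGC occurred in 9.6% of promoters of called rises, 14.2% of called falls and 14.9% of all tested genes. CACGTG occurred in 8% of promoters of called rises, 11.3% of called falls and 9.73% of all tested genes. The called rises thus held neither motif at a higher share than all tested genes, and the windows hold no distant enhancers. The GCLM promoter is shown because it holds the antioxidant motif beside a called rise, on the strand opposite to the gene at position -34, in capitals as it reads on the printed strand (chr1:93909381-93909680, minus strand). NEU1 is shown for the E-box at position -126, also in capitals (chr6:31862772-31863071, minus strand).
GCLM: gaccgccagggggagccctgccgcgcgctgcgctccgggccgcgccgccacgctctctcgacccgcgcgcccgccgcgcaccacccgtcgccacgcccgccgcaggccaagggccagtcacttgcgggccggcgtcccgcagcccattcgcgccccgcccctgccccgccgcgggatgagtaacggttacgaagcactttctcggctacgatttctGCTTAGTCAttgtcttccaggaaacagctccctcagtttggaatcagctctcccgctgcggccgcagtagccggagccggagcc
NEU1: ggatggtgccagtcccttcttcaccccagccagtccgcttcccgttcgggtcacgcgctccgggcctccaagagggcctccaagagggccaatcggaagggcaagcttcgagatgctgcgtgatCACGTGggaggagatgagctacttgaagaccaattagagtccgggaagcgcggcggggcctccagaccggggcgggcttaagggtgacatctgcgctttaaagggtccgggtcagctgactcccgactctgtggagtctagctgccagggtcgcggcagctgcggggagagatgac

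Lysosomal genes lay slightly above control as a group, led by a sialidase. Of 48 tested, 42 were above control, 4 were called higher and 1 lower, with a median of 0.12. NEU1, the lysosomal sialidase whose promoter is printed above, stood at 864, 809 and 803 in siELOVL2 libraries and 457, 462 and 508 in control libraries, and rose by 0.79 (SE 0.06, limma adjusted p = 0.00589). The protease gene CTSL rose by 0.36 (adjusted p = 0.0378) and the GM2 activator gene GM2A by 0.30 (adjusted p = 0.0421). ATP6V1A, a subunit of the proton pump, fell by 0.39 log2 units (adjusted p = 0.0275), with 1527, 1600.5 and 1682 in siELOVL2 libraries and 2017, 2129 and 2135 in control libraries. The transcription factor TFEB, which drives lysosomal genes, was at 0.36 without a call (adjusted p = 0.287).

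Insulin signalling held called genes in both directions. Of 31 genes of the insulin receptor and FOXO list, 2 were called higher and 2 lower, with a median of 0.024. Over all genes tested 0.858% were called higher and 1.35% lower. FBXO32, a ubiquitin ligase subunit that FOXO factors induce in wasting muscle, stood at 2065, 1621 and 1577 in siELOVL2 libraries and 836, 842 and 829 in control libraries, and rose by 1.06 (SE 0.10, limma adjusted p = 0.011). INSR, the insulin receptor, stood at 349, 386 and 380.4 in siELOVL2 libraries and 184, 231 and 242 in control libraries, and rose by 0.77 (adjusted p = 0.0318). TXNIP, a glucose-responsive inhibitor of thioredoxin, stood at 349, 313 and 304 in siELOVL2 libraries and 725, 644 and 622 in control libraries, and fell by 1.04 log2 units (adjusted p = 0.00625). The groups did not overlap in any of these 3 genes. The kinase gene AKT1 fell by 0.30 log2 units (adjusted p = 0.0463). The 12-library fit did not call TXNIP (adjusted p = 0.0861) or AKT1 (0.141). Both were called in it when siELOVL5 replicate 3 was left out. TXNIP stood at 702, 717 and 1735 in siELOVL5 replicates 1, 2 and 3.

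Other rises of the 25 named by size were spread over carriers, proteases and regulators. ZNF469, a zinc finger gene tied to collagen in the cornea, stood at 409.7, 423 and 421 in siELOVL2 libraries and 193, 176 and 160.5 in control libraries, and rose by 1.24 (SE 0.08, limma adjusted p = 0.00392). ERMP1, a metallopeptidase of the endoplasmic reticulum, stood at 694, 796 and 829 in siELOVL2 libraries and 453, 436 and 394 in control libraries, a rise of 0.85 (adjusted p = 0.0138). FDX1, the mitochondrial ferredoxin that passes electrons to P450 enzymes, stood at 152, 157 and 149 in siELOVL2 libraries and 94.4, 85.3 and 90 in control libraries, a rise of 0.76 (adjusted p = 0.0187). All 3 had no overlap between groups. ABCG2, an efflux pump that also exports porphyrins, rose by 0.68 (adjusted p = 0.04), and ALDH3A2, the fatty aldehyde dehydrogenase, rose by 0.62 (adjusted p = 0.0102). E2F5, a repressive E2F factor, rose by 0.81 (adjusted p = 0.025), with 149, 143 and 171 in siELOVL2 libraries and 83.2, 87.1 and 92.3 in control libraries. The amino acid carrier gene SLC7A6 rose by 0.76 (adjusted p = 0.0227). The remaining named rises lay between 0.59 (HERC3) and 0.78 (NCR3LG1, a ligand of a natural killer cell receptor), and included the claudin CLDN4, the organic anion carrier SLCO2B1, the phosphatase DUSP5, the kinase MKNK2, TMEM205, SH2D3A, WBSCR27 and UBL3. Among these, NCR3LG1, CLDN4, DUSP5 and MKNK2 were not called by the 12-library fit (adjusted p = 0.361, 0.105, 0.318 and 0.138).

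More genes were called lower than higher, and most of the largest falls were in none of the gene lists: of the 24 named by size, ELOVL2 aside, 6 were in a list and 18 in none. HMGB3, a chromatin protein, stood at 155, 189.8 and 164 in siELOVL2 replicates 1, 2 and 3, against 539.9, 531 and 478 in control replicates 1, 2 and 3, and fell by 1.60 log2 units (SE 0.10, limma adjusted p = 0.00385). HMGB3 has processed copies elsewhere in the genome, and whether their reads were counted with it is not given in the sources used here. CCNG1, cyclin G1, a p53 target that recruits a phosphatase to MDM2, stood at 192, 253 and 241 in siELOVL2 libraries and 712, 708 and 638 in control libraries, and fell by 1.59 (SE 0.11, adjusted p = 0.00435). DUSP3, a phosphatase of ERK and JNK, stood at 489, 472 and 576 in siELOVL2 libraries and 1585, 1411 and 1329.6 in control libraries, and fell by 1.49 (SE 0.10, adjusted p = 0.00392). In these 3 genes the highest siELOVL2 library was far below the lowest control library.

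Enzymes of lipids and glycans were among them. CERK, the kinase that makes ceramide 1-phosphate, stood at 148, 122 and 123 in siELOVL2 libraries and 369, 391 and 335 in control libraries, and fell by 1.48 log2 units (SE 0.10, limma adjusted p = 0.00435). B4GALT1, which adds galactose to glycans, stood at 1604, 1625 and 1757 in siELOVL2 libraries and 4251, 4275 and 4078 in control libraries, and fell by 1.34 (SE 0.05, adjusted p = 0.00143). In both genes all siELOVL2 libraries were well below the lowest control library. In the sphingolipid list 2 genes were called higher and 1, CERK, lower among 35 tested, with a median of 0.074. Of the rises, SGPL1, the lyase that breaks down sphingosine 1-phosphate, rose by 0.49 (adjusted p = 0.0361). Of 27 galactosyltransferase and glycan branching genes, MGAT4B was called higher at 0.41 (adjusted p = 0.03) and B4GALT1 lower.

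Further falls named by size covered signalling, chromatin and RNA. MOB1A, an adaptor that activates the LATS kinases of the Hippo pathway, stood at 1122, 1276 and 1369 in siELOVL2 libraries and 3209.6, 3214 and 3086 in control libraries, and fell by 1.34 log2 units (SE 0.08, limma adjusted p = 0.00385). VBP1, a subunit of the prefoldin chaperone, stood at 194, 229 and 264 in siELOVL2 libraries and 589, 608 and 635 in control libraries, and fell by 1.42 (adjusted p = 0.00625). ELAVL1, the RNA-binding protein HuR that stabilizes many messages, stood at 531, 573 and 525 in siELOVL2 libraries and 1050.4, 1118 and 1075 in control libraries, and fell by 0.99 (adjusted p = 0.00385). None of the 3 overlapped its controls. AFF4, a scaffold of the super elongation complex, fell by 0.95 (adjusted p = 0.0033), and TAF10, a subunit of TFIID and SAGA, fell by 1.06 (adjusted p = 0.015). The cytoskeletal regulator DPYSL3 fell by 1.19 (adjusted p = 0.00768), the GTPase-activating protein DLC1 by 1.01 (adjusted p = 0.0378) and the integrin ITGB6 by 1.26 (adjusted p = 0.0441). The other named falls lay between -1.40 (ZNF367) and -0.95 (NUP50), among them PEG10, PHF13, TMEM127, HIATL1, C18orf54, FAM173A, SIPA1L2 and TENM3. C18orf54 was not called by the 12-library fit (adjusted p = 0.0508).

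Part of the falling transcripts shared short words in the 3′ UTR. The 3 words came from an earlier examination of these same data that had looked at what falling genes hold, so their share among called genes is a description and supports nothing. The first word is ACGAATA. The second word, CACGATA, shares 6 bases with the third, which is ACGATAA. UTRs were read from GENCODE 29, and ELOVL2 was left out of the counts. At least 1 of the 3 words stood in 66 of 234 called falls with a UTR (28.2%), in 0 of 155 called rises and in 579 of 14689 tested genes (3.94%). Among called falls of at least 2-fold it stood in 14 of 26 (53.8%), and among the 24 falls named by size, ELOVL2 aside, in 16 of the 23 with a UTR. Median UTR length differed too, at 1922 bases in called falls, 1582 in called rises and 1282 in all tested genes, and the part of length in these shares was not tested. The ELOVL2 transcript itself holds the overlapping pair at positions 2072 and 2073 of 3997, within its 3′ UTR. Whether the words play a part in the falls was not tested. No word was found for HMGB3 or B4GALT1, which are among the falls named by size. The sites below are shown to let the windows be compared, each with 10 bases on either side of the word in capitals. All are from genes with a word, and EGLN1 and CDH2 are not among the falls named by size.
ELOVL2: ggtcatgagcCACGATAaaaaatgcca
DUSP3: aaaacccaaaCACGATAaacctttcaa
CERK: ttgagaagacACGAATAaagttacttg
VBP1: ttactgcttaACGAATAactaactact
MOB1A: cttttattttACGAATAaaaaatgtat
ELAVL1: tactgttgttCACGATAatttctcccg
AFF4: gtgcatttcaCACGATAaagctgttaa
EGLN1: acttgtgaatACGAATAaatgggataa
CDH2: gatttctgaaACGATAAgtaaaagaca

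Values of all transcripts with a word, called genes included, are given for both pairs of groups. The words were picked from falling genes of these data, so a lower median of their carriers restates that choice and is a description. Among tested genes at or above the median level, the 384 with a word had a median log2 fold change of -0.14 for siELOVL2 over control, beside 0.027 for the 8703 without one. In the other 6 libraries the same genes had a median of -0.19 for siELOVL2_5 over siELOVL5, beside 0.037 for those without a word. Of the 384 genes, 72.7% lay below control in siELOVL2 cells, and 73.2% lay below siELOVL5 in siELOVL2_5 cells. Without a word the shares were 43.9% and 43%. Limma called 62 of the 384 lower (16.1%) and 0 higher in siELOVL2 cells, beside 161 lower (1.85%) and 145 higher of the 8703 without a word.

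**Figure D3:**
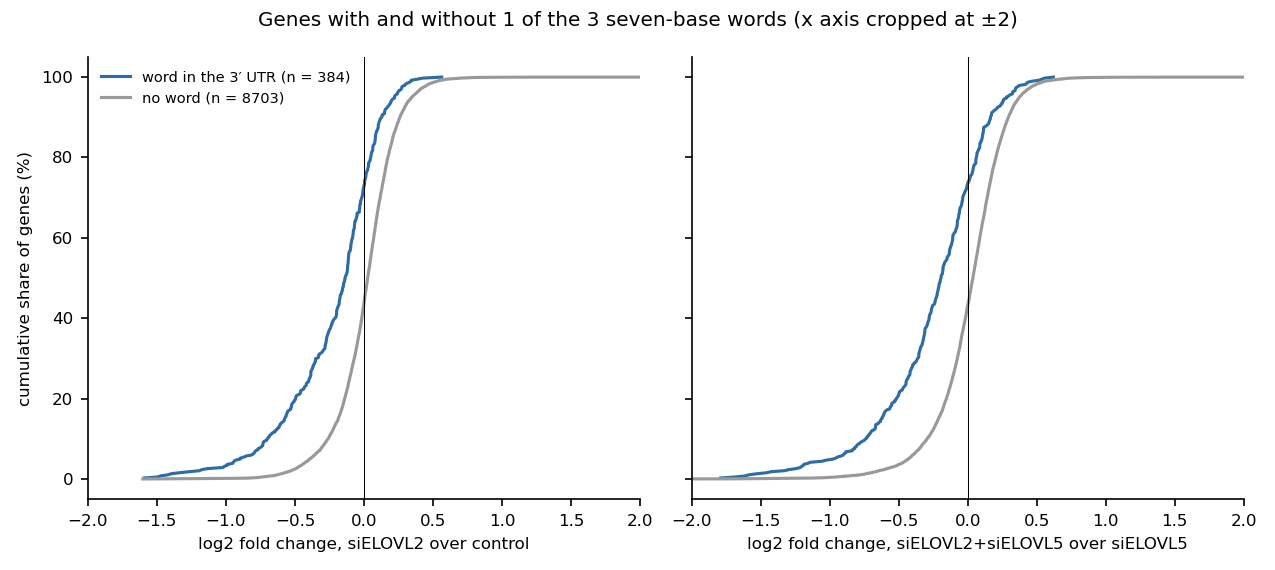
Cumulative share of genes in percent (vertical axis) by log2 fold change (horizontal axis) for 384 genes with at least 1 of the 3 words in the 3′ UTR (blue) and 8703 genes without one (grey), all at or above the median level. The left panel shows siELOVL2 over control and the right panel siELOVL2+siELOVL5 over siELOVL5, and in both the blue curve lies left of the grey one.

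Proliferation genes stood below control almost throughout, by small amounts. In the mitosis and G2/M list 41 of 43 tested genes lay below control, beside 46.6% of all genes tested, with a median of -0.40, and 3 were called lower and 0 higher. HJURP, the chaperone of centromeric histone, stood at 1579, 1611 and 1404 in siELOVL2 libraries and 2198, 2220.5 and 2170.4 in control libraries, and fell by 0.52 log2 units (limma adjusted p = 0.02). The spindle protein gene NUSAP1 fell by 0.50 (adjusted p = 0.0473) and the ubiquitin-conjugating enzyme gene UBE2C by 0.50 (adjusted p = 0.0493). In the DNA replication and G1/S list 38 of 44 lay below control with a median of -0.24, and 6 were called lower and 2 higher. TK1, thymidine kinase, stood at 849, 897 and 772 in siELOVL2 libraries and 1204, 1215 and 1201 in control libraries, and fell by 0.53 (adjusted p = 0.0201). The helicase subunit MCM4 fell by 0.33 (adjusted p = 0.03) and the origin factor MCM10 by 0.36 (adjusted p = 0.0273). The other called falls were MCM3 (-0.38), E2F8 (-0.69) and GINS1 (-0.32). Against the direction of the list, the called rises were E2F5, given above, and CCND3, a D-type cyclin, at 0.46 (adjusted p = 0.0372).

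Replication-dependent histone genes showed the same direction. Of 29 tested, 28 lay below control with a median of -0.31, and 3 were called lower. HIST1H3A stood at 168, 218 and 152 in siELOVL2 libraries and 327, 325 and 294 in control libraries, and fell by 0.83 log2 units (limma adjusted p = 0.0423). HIST1H2BH fell by 0.63 (adjusted p = 0.025) and HIST1H1D by 0.60 (adjusted p = 0.0221). Many histone genes have near-identical copies, and how shared reads were counted is not given either. The 12-library fit called 0 G2/M genes, 0 histone genes and, in the G1/S list, 2 rises and 0 falls. When siELOVL5 replicate 3 was left out of it, HJURP, NUSAP1, UBE2C, TK1, MCM4, MCM10, HIST1H3A, HIST1H2BH and HIST1H1D were all called. Leaving out any other library did not bring these calls. A 6-library fit with the replicate number as a block called 31 G2/M, 9 G1/S and 10 histone genes lower, and 1, 3 and 0 higher. In the other pair of groups, siELOVL2_5 over siELOVL5, the medians were -0.18 for G2/M, 0.018 for G1/S and -0.075 for histones. Without siELOVL5 replicate 3, which stood apart from its group, they were -0.50, -0.22 and -0.31. An E2F site (TTTNGCGC with C or G at N, both strands, added after the calls were seen) occurred in 5.88% of promoters of called falls, 0.8% of called rises and 1.91% of all tested genes.

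The list of p53 targets ran the other way from its strongest member. Of 33 tested, 30 lay above control with a median of 0.20, and 1 was called in each direction. BTG2, an antiproliferative gene, rose by 0.41 (limma adjusted p = 0.0372), while CCNG1 fell as given above. The 12-library fit did not call BTG2 (adjusted p = 0.129). CDKN1A, the cell cycle inhibitor p21, was at 0.37 without a call (adjusted p = 0.105), and MDM2, the ligase that degrades p53, was at 0.23 (adjusted p = 0.118).

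Genes of hypoxia, adhesion and growth factor signalling held a few called falls each, beside 1.35% called lower over all genes tested. A498 cells are known to lack functional VHL, which degrades hypoxia-inducible factors. The targets of these factors had 3 called lower and 0 higher of 39, with a median of -0.073. EGLN1, the prolyl hydroxylase that marks the factor for degradation, stood at 738, 854 and 878 in siELOVL2 libraries and 1223, 1267 and 1289.7 in control libraries, and fell by 0.62 log2 units (limma adjusted p = 0.0201). The lactate dehydrogenase gene LDHA fell by 0.35 (adjusted p = 0.0234) and TGFA, a ligand of the EGF receptor, by 0.70 (adjusted p = 0.0348). VEGFA, the angiogenic factor, was at -0.28 (adjusted p = 0.306) and the factor genes HIF1A and EPAS1 at -0.13 and -0.01, all without a call. Mesenchymal, matrix and adhesion genes had 2 called lower of 42, with 28 below control and a median of -0.10. CDH2, N-cadherin, stood at 1673, 1809.5 and 1718 in siELOVL2 libraries and 2877, 3026 and 2749 in control libraries, and fell by 0.73 (SE 0.06, adjusted p = 0.0048). The collagen gene COL5A1 fell by 0.44 (adjusted p = 0.0418). The summed fibroblast and pericyte markers, given above, were also lower in siELOVL2 libraries than in control libraries, and their part in these falls was not tested.

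Of 34 receptor, ligand and feedback genes of ERBB and MAPK signalling, 3 were called lower and 1 higher, with a median of -0.10. The counts of calls in these lists stand beside 1.35% called lower and 0.858% called higher over all genes tested. ERRFI1, an inhibitor of the EGF receptor, fell by 0.50 log2 units (limma adjusted p = 0.0311), beside DUSP3 and TGFA above, and DUSP5, an ERK phosphatase, rose by 0.65 (adjusted p = 0.0171). The 12-library fit called neither ERRFI1 (adjusted p = 0.394) nor DUSP5 (0.318). In the Hippo list MOB1A and AMOT, a scaffold that holds YAP in the cytoplasm, fell among 29 tested, AMOT by 0.55 (adjusted p = 0.0362). In the TGF-beta list 1 of 35 was called, SKIL, a repressor of SMAD proteins, which fell by 0.40 (adjusted p = 0.0187). VCAM1, an adhesion molecule for leukocytes, fell by 0.51 (adjusted p = 0.0187), the 1 call among 27 NF-kappaB and cytokine genes. RSAD2, an antiviral enzyme, was the 1 call among 42 interferon-stimulated genes, at 51, 32.2 and 51.2 in siELOVL2 libraries and 157, 96.7 and 158 in control libraries. RSAD2 fell by 1.59 (SE 0.27, adjusted p = 0.0423), and the 12-library fit did not call it (adjusted p = 0.235). AGO3, an argonaute, fell by 0.55 (adjusted p = 0.0206), alone among 16 genes of the RNA interference machinery. The 12-library fit did not call AGO3 (adjusted p = 0.0558).

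The lists of lipid synthesis, oxidation and storage held 0 or 1 call each, beside 2.21% called over all genes tested. Of 28 genes of cholesterol synthesis and uptake and 18 of de novo fatty acid synthesis limma called 0, with 1 and 4 genes at an unadjusted p under 0.05, and medians of 0.072 and 0.082. The fatty acid synthase gene FASN was at 0.14 (limma adjusted p = 0.823) and SREBF1, a regulator of both routes, at 0.37 (adjusted p = 0.517). Fatty acid oxidation and PPAR targets had 1 called rise of 34, HADHB, a subunit of the mitochondrial trifunctional protein, at 0.35 (adjusted p = 0.0475). PLIN2, the coat protein of lipid droplets, stood at 4039.6, 3846 and 3958 in siELOVL2 libraries and 5480.2, 4754 and 4967 in control libraries, and fell by 0.36 log2 units (adjusted p = 0.046), alone among 30 lipid droplet and triglyceride genes. EPT1, the ethanolamine phosphotransferase, fell by 0.39 (adjusted p = 0.0473), alone among 30 phospholipid genes. The 12-library fit called none of HADHB, PLIN2 and EPT1 (adjusted p = 0.0561, 0.147 and 0.123). Respiratory chain genes held 0 calls among 49, with 41 above control, 11 at an unadjusted p under 0.05 and a median of 0.093.

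**Figure D4:**
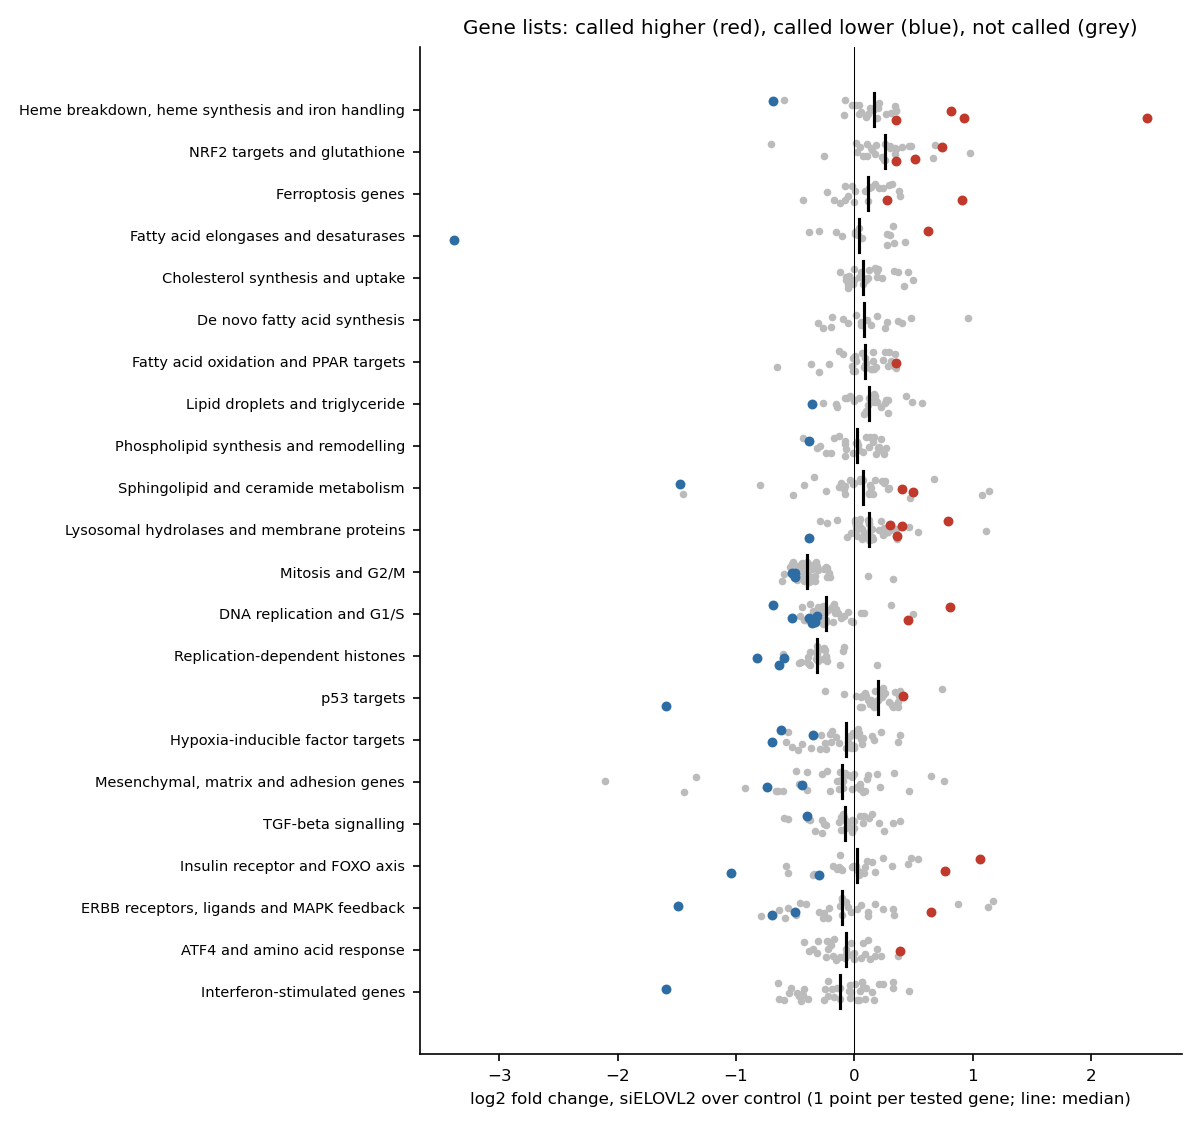
Log2 fold change of siELOVL2 over control (horizontal axis) for the tested genes of 22 gene lists, 1 point per gene, with the list median as a black line. Genes called higher are red, called lower blue and not called grey. The G2/M, G1/S and histone points lie left of 0 with medians of -0.40, -0.24 and -0.31, and the NRF2 points lie mostly right of it with a median of 0.26.

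The siELOVL2_5 and siELOVL5 groups differ by their labels in the knockdown of ELOVL2, which gave the comparison again in 6 other libraries. Whether the same ELOVL2 siRNA was used in both is not stated in the labels. ELOVL2 stood at 25.4, 26.5 and 19.9 in siELOVL2_5 replicates 1, 2 and 3, against 286, 235 and 165 in siELOVL5 replicates 1, 2 and 3, which the limma fit put at -3.17 log2 units (adjusted p = 0.019). HMOX1 stood at 17859, 16379 and 9307 in siELOVL2_5 libraries and 1883, 1669 and 1441 in siELOVL5 libraries, a rise of 3.08 (adjusted p = 0.0216). CCNG1 stood at 215, 238 and 229 in siELOVL2_5 libraries and 644, 686 and 645 in siELOVL5 libraries (log2 fold change -1.53, adjusted p = 0.00478). All 3 separated again without overlap. This fit called 21 genes (0.113%), 5 higher and 16 lower, and 17 of the 21 (81%) were also among the 412, which is 4.13% of the 412. At an unadjusted p under 0.05 there were 2358 genes.

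Direction was shared far more widely than calls. Of the 160 genes called higher in siELOVL2 cells 155 (96.9%) were also higher in siELOVL2_5 than in siELOVL5 cells, 119 of them with an unadjusted p under 0.05 and a median log2 fold change of 0.40 over the 160. Of the 252 called lower 242 (96%) were also lower, 161 of them with an unadjusted p under 0.05, with a median of -0.46 over the 252. Among all tested genes the share on the same side was 68.4% of those above control and 64.5% of those below. siELOVL5 replicate 3 stood apart, with a median distance of 0.22 on the log2 scale from the other 2 of its group, beside 0.071 to 0.16 for the other 11 libraries. Without it 157 (98.1%) and 246 (97.6%) were on the same side, the medians were 0.42 and -0.56, and the shares among all tested genes were 69.5% and 69%. All 25 named rises and all 25 named falls were on the same side, 20 and 25 of them with an unadjusted p under 0.05.

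For 22 of the 86 called genes that the naming rule chose, leaving out siELOVL5 replicate 3 moved the log2 fold change of the second pair by more than 0.25. In 2 of the 86 the sign changed. MCM4 was at 0.03 with all 6 libraries and -0.25 without that replicate, and ACSL4 at -0.06 and 0.08. NUSAP1 was at -0.20 and -0.56, TK1 at -0.04 and -0.34, MCM10 at -0.04 and -0.30, GCH1 at 0.13 and 0.42, and MKNK2 at 0.30 and 0.58. The values by library of 3 more of these genes follow, all picked with their values known. DUSP5 stood at 949, 943 and 907 in siELOVL2_5 libraries and 676, 640.2 and 1779 in siELOVL5 libraries, a log2 fold change of 0.03 with all 6 libraries and 0.50 without siELOVL5 replicate 3. NCR3LG1 stood at 386, 354 and 304 in siELOVL2_5 libraries and 224, 189 and 727 in siELOVL5 libraries, or 0.14 with all 6 and 0.75 without that replicate. RSAD2 stood at 78, 57.6 and 35.2 in siELOVL2_5 libraries and 282, 174 and 1479 in siELOVL5 libraries, or -2.93 with all 6 and -2.02 without it. In each of these 3 genes siELOVL5 replicate 3 was the highest of its group by more than 2-fold. NQO1, not called in siELOVL2 cells, was called here at 0.72 (limma adjusted p = 0.043), with 10213, 9892 and 10102 in siELOVL2_5 libraries and 5968, 5968 and 6421 in siELOVL5 libraries.

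**Figure D5:**
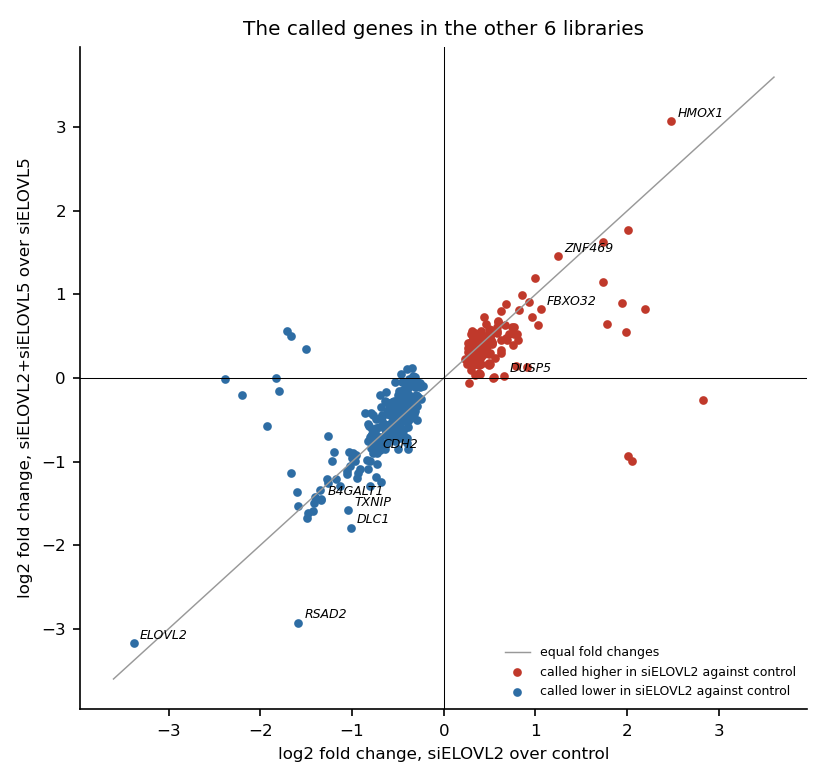
Log2 fold change of siELOVL2+siELOVL5 over siELOVL5 (vertical axis) against that of siELOVL2 over control (horizontal axis) for the 412 called genes, red where called higher and blue where called lower in siELOVL2. The grey line marks equal fold changes, and 155 red and 242 blue points lie on the same side of 0 on both axes.

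The difference between the 2 effects of ELOVL2 knockdown was tested itself, with all 12 libraries. Limma called 0 of 18648 genes (0%), and 522 had an unadjusted p under 0.05. Without the intensity trend the same test called 9. Of the 160 called rises 9, and of the 252 called falls 16, had an unadjusted p under 0.05 for the difference. A p that misses the threshold does not show that the 2 effects are equal.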

How the data were processed

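RNA-seq of 12 libraries was deposited as 1 table of 57773 genes. The values are a signal derived from read counts, labelled normalized by the authors. Every column holds the same set of values, all multiples of 1 over 12, the pattern left by quantile normalization of counts from 12 libraries. Not given in the sources used here are the aligner, counter, annotation and genome build. As values are not counts, no count model was run. Depth was estimated from the order of tied low values. It ranged from 6.7 to 10.7 M reads over the 12 libraries and limits the precision of low genes.

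The main analysis used limma 3.58.1 (R 4.3.3) with an intensity trend on log2(value + 1). A gene had to reach 1 in 3 or more libraries, which 18648 did, with Benjamini-Hochberg adjustment and a threshold of 0.05. The fit of siELOVL2 against control used its 6 libraries alone. The siELOVL2_5 against siELOVL5 fit used the other 6, and the difference of the effects all 12. The script was tested on simulated data. P-values set the difference between groups against the spread between replicates, moderated over genes, and speak only for replicates of 1 cell line.

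The comparison, the 33 gene lists (983 genes, 948 matched by name, 27 by an older or newer name and 8 without a match) and the rules were chosen with earlier results of these data known. So were the 3 UTR words. ELOVL2, ELOVL5 and HMOX1 were always named. Up to 25 genes each way were named by fold change among called genes with separate groups and a mean no lower than the median over tested genes (93.05). Up to 4 called members of each list with the smallest p were named, or the 2 with the smallest p where none was called. Other genes named, such as BACH1, NFE2L2, NQO1, GPX4 and list members without a call, were chosen after their values were seen, as was the E2F site. No set test was run. Alternatives were other pseudocounts, filters and scalings, no trend, a replicate block, a fit of all 12 libraries and leaving out each library. Leaving libraries out of the 12-library fit was added after the data were seen. Promoters are from RefSeq (GRCh38.p14), UTRs and coordinates from GENCODE 29. No sequence from DLC1 is shown, and single values of some genes that the rule chose are not reported here.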

Additional observations from a re-analysis of the deposited data

How the results depend on the processing

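The count of 412 genes called between siELOVL2 and control libraries (160 higher, 252 lower) was 410 with a pseudocount of 0.5, 421 with 4, 318 without a filter and 410 after rescaling, where 137 were higher and 273 lower. It was 780 with a filter at 10, 86 without the intensity trend and 254 with all 12 libraries in the fit (203 shared). Leaving out 1 library gave 0 to 43 in the 6-library fit and 63 to 829 in the 12-library fit, the highest without siELOVL5 replicate 3. ELOVL2 kept its direction throughout, from -3.55 to -3.18 with 1 library left out, and missed the threshold in 3 such fits with 5 libraries. Same-numbered siELOVL2 and control libraries deviated together only weakly (correlations 0.141, 0.013 and 0.156), so the numbers were not taken as pairs, although each library correlated best with its own number. A replicate block gave 951 calls with 6 libraries and 861 with 12. The 21 calls between siELOVL2_5 and siELOVL5 libraries became 73 without a filter, 60 with a filter at 10, 0 with the replicate block, 516 with all 12 libraries and 1368 with all 12 and the block. Leaving out 1 library gave 0 to 11 with 6 libraries and 154 to 791 with 12. The difference between both effects had 0 calls under the other alternatives, the block included, and 9 without the trend. Low counts limit all genes near 0.917, the level a gene without a read can hold.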

Other observations

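Of 32 genes of the ATF4 and amino acid response, 1 was called higher, CEBPB, a transcription factor of stress and fat cell differentiation, at 1858, 1824 and 1918 normalized counts in siELOVL2 libraries against 1351, 1409.8 and 1524 in control libraries (log2 fold change 0.39, limma adjusted p = 0.0318). The list lay mostly below control, with 21 of 32 genes there and a median of -0.071, and the 12-library fit did not call CEBPB (adjusted p = 0.178). Of 28 genes of the unfolded protein response limma called 0, with 5 at an unadjusted p under 0.05, and the median was -0.005. Of 19 proximal tubule genes it called 0, with 1 at an unadjusted p under 0.05.

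Called genes were also set beside the other 6 libraries by their level. At or above the median level 144 of 146 called rises and 228 of 234 called falls had the same sign for siELOVL2_5 over siELOVL5. With a mean normalized count under 10 the same held for 6 of 9 called rises and 5 of 9 called falls. One of them, the readthrough transcript C17orf61-PLSCR3, stood at 0.833, 0 and 0 in siELOVL2 libraries and 4.75, 5.83 and 5.58 in control libraries, but at 3.67, 7.58 and 3.67 in siELOVL2_5 libraries and 4.33, 5.58 and 4.5 in siELOVL5 libraries. This transcript was picked with its values known, and the difference in repeat between levels was not tested.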
